A study of Rattus norvegicus with 18 samples.

Results

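Removal of environmental enrichment was compared with its continuation in the basolateral amygdala (BLA) by bulk RNA sequencing, a contrast called ERvEE here. Its members were all genes whose mean over the 18 BLA libraries lay above 1, in the 6 enrichment removed (ER) and the 6 environmentally enriched (EE) libraries. Of 19113 genes in the table, 18172 passed that filter and 16268 of them were protein-coding. The 6 standard housing (SH) libraries of the series entered the filter on low values but took no part in the contrast. Their values are given only beside selected genes. SH libraries were not screened here for libraries that stand apart. An SH range below may therefore rest on outlying rats and is not a measure of ordinary spread. The same limit holds for the alternative fit of all 18 libraries.

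All rats were adult male Sprague-Dawley animals that arrived at 8 weeks of age, each giving 1 library from bilateral BLA micropunches. EE rats lived in an enriched cage during their active cycle, with 10 rats to a cage, toys and shelters. ER rats had the same enrichment for 4 weeks and were then housed alone around the clock with no enrichment, and brains were taken 2 weeks after removal. SH rats were housed singly throughout. ER rats thus differed from EE rats in objects, space and cage mates at the same time, and these cannot be told apart. Enriched rats shared a cage, while the tests below took each rat as a unit. Of the 10 rats in each group, 6 were sequenced, so n = 6 libraries per group.

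The BLA is a mainly glutamatergic nucleus that gives sensory events their emotional value and takes part in fear, reward and stress responses. Its excitatory output is held in check by local inhibitory neurons, many of which are wrapped in a perineuronal net, a dense matrix of hyaluronan, chondroitin sulfate proteoglycans and link proteins. Microglia, the resident immune cells of the brain, survey synapses and secrete proteases that cut this matrix, and enriched housing is a standard means of changing both glia and synapses in rodents.

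The deposited values were normalized read counts. They are not corrected for gene length, so each gene was compared between rats and not with other genes. Fold changes are differences in log2(value + 1), ER minus EE, so a negative value is lower after removal, and the test was limma with Benjamini-Hochberg adjustment. Whole reads recovered from the values summed to 17753797 to 21931492 per EE library and 20171558 to 23450276 per ER library. The median correlation of a library with the other 11 ranged from 0.971 to 0.977. On the first principal component, which held 15.6% of the variance, EE 1, 2, 3 and 5 lay at -51.0 to -23.4, while EE 4 at 20.4 and EE 6 at 31.4 lay on the same side as ER 3 at 43.1 and ER 5 at 40.4. Rspo2, a marker of BLA projection neurons, stood at 882 to 2795 in EE (median 1240.5) and at 1441 to 2646 in ER (median 1941). It was thus higher in ER in value, with a log2 fold change of 0.48 ± 0.22 (SE, unadjusted limma p 0.044, adjusted 0.685). The choroid plexus marker Ttr stood at 0 to 44.2 in EE and at 0 to 22.5 in ER. The median SD of a gene on the log2 scale was 0.234 among EE rats and 0.204 among ER rats, and it was higher among EE rats for 60.1% of genes.

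No gene passed an adjusted p of 0.05 in ERvEE. The limma fit called 0 of 18172 genes, with a smallest adjusted p of 0.218. At an unadjusted limma p under 0.05 there were 1295 genes, 7.13% of those tested, of which 684 (3.76%) were lower in ER and 611 (3.36%) higher. Over all genes the median log2 fold change was 0.0030, the median absolute value was 0.109, and 8925 genes (49.1%) lay below 0. The count of 1295 was 665 when all 18 libraries shared one fit. It was 2433 without EE 6, 831 without EE 5 and 834 without ER 5. On the recovered reads, edgeR's quasi-likelihood test and limma-voom also called 0 genes, with smallest adjusted p values of 0.145 and 0.123, while DESeq2 called 5 of the 18158 genes to which it gave an adjusted p (0.0275%).

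**Figure D1:**
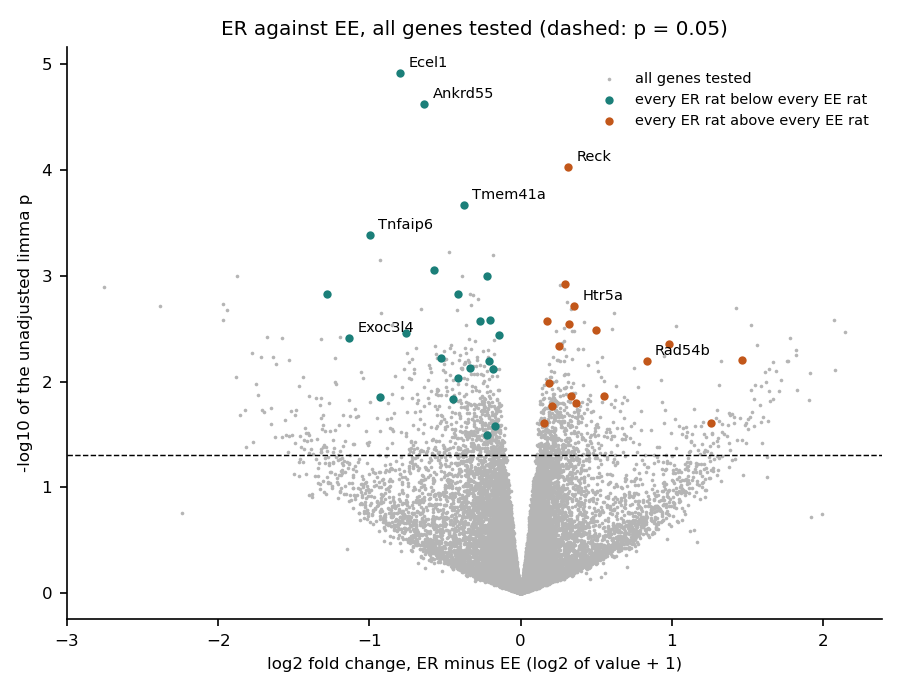
Every gene tested in ERvEE, with the log2 fold change (ER minus EE) on the horizontal axis and -log10 of the unadjusted limma p on the vertical axis. Teal points are the 22 genes whose 6 ER values all lay below the 6 EE values, orange points the 17 genes with the reverse, and Ecel1 and Ankrd55 stand at the top of the plot.

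The EE and ER values did not overlap in 39 genes, 0.215% of those tested. Every ER rat lay below every EE rat in 22 genes (0.121%), and every ER rat lay above every EE rat in 17 genes (0.0936%). None of these genes passed the adjusted limma test, so the values below describe how the rats sorted.

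The lowest p in the contrast belonged to Ecel1 (ENSRNOG00000019447), a neuronal membrane metalloprotease related to the endothelin-converting enzymes. Its normalized count in EE rats was 168 at the lowest, 190 at the median and 237 at the highest, and in ER rats 98.7, 112 and 129. No ER rat reached the lowest EE rat. The 6 SH rats ranged from 128, just below the highest ER rat, to 233, with a median of 164. The log2 fold change was -0.79 ± 0.13 (SE, n = 6 per group), with an adjusted limma p of 0.218 and an adjusted DESeq2 p of 4.44e-05. Leaving out any 1 of the 12 libraries kept the log2 fold change between -0.84 and -0.74.

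Ankrd55 (ENSRNOG00000013555), an ankyrin repeat protein, was next by p. Its values were 164, 196 and 215 in EE rats (lowest, median and highest) and 113, 123 and 129 in ER rats, with no overlap. The log2 fold change was -0.64 ± 0.11 (SE), with an adjusted limma p of 0.218 and an adjusted DESeq2 p of 0.000185. Among SH rats Ankrd55 ranged from 98.0 to 186.

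Reck, a membrane-anchored inhibitor of matrix metalloproteinases, had the lowest p among genes higher in ER. EE rats stood at 739, 805 and 829, and ER rats at 852, 1004 and 1050, without overlap. The log2 fold change was 0.31 ± 0.06 (SE), with an adjusted limma p of 0.565 and an adjusted DESeq2 p of 0.00983. SH rats ranged more widely, from 585 to 1210.

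Tnfaip6, the secreted protein that links inter-alpha-inhibitor heavy chains to hyaluronan and so stabilises hyaluronan-rich matrix, had the lowest p among the hyaluronan genes. EE rats stood at 48.3, 55.6 and 78.0 and ER rats at 18.6, 31.6 and 38.2, without overlap. The log2 fold change was -0.995 ± 0.22 (SE), with an adjusted limma p of 0.685. SH rats spanned both groups, from 15.0 to 76.0.

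The promoters of these 4 genes are shown because the first 3 had the lowest p values of the contrast and Tnfaip6 had the lowest p of the hyaluronan genes. Each run is 250 bases before to 50 after the RefSeq start in GRCr8, written 5′ to 3′ on the gene's strand. The Ecel1 window is chr9:95274523-95274822 on the minus strand, that of Ankrd55 is chr2:45647536-45647835, that of Reck is chr5:62898467-62898766 and that of Tnfaip6 is chr3:56911148-56911447, the last 3 on the plus strand. Capitals mark motif matches on either strand, none of which overlap here. The TATA box was searched as TATAAA, the motif near the start of many strongly regulated genes. The GC box, a binding site of Sp1, was searched as GGGCGG. The E-box, a site of many helix-loop-helix factors, was searched as CACGTG. The cAMP response element was searched as TGACGTCA. The AP-1 site, bound by Fos and Jun proteins, was searched as TGANTCA.
Ecel1: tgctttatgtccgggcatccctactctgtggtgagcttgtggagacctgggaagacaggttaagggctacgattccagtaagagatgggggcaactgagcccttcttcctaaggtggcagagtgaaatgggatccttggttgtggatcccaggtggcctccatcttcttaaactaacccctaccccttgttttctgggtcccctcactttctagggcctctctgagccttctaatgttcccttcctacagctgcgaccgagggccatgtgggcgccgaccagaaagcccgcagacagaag
Ankrd55: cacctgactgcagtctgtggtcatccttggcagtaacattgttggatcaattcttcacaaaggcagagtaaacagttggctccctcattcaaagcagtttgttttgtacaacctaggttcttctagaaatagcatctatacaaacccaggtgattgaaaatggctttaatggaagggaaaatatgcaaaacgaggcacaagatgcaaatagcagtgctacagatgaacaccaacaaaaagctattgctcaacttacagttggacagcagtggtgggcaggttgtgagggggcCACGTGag
Reck: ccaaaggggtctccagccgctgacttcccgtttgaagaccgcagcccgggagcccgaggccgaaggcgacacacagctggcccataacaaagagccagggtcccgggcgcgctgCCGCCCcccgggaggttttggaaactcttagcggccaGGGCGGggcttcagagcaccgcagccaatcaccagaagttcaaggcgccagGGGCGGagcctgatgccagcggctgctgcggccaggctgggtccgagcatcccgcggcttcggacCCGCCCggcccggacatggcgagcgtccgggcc
Tnfaip6: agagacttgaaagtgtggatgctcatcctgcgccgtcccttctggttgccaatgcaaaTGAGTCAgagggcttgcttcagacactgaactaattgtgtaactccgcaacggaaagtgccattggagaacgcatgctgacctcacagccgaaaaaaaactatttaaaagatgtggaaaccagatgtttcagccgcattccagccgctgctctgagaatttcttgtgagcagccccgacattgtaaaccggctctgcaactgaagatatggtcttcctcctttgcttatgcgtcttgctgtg
The Reck window held 4 GC boxes and 70.3% G or C, against 55.0% in Ecel1, 44.0% in Ankrd55 and 48.3% in Tnfaip6. The Ankrd55 window held 1 E-box, the Tnfaip6 window 1 AP-1 match, and the Ecel1 window none of the 5 motifs. Over the 33469 RefSeq promoter windows of this length, 33.1% held a GC box, 14.2% a TATA box, 7.33% an AP-1 match, 6.42% an E-box and 1.83% a cAMP response element. These are matches of letters and were not tested for use.

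Among the other genes that lay wholly lower in ER, several encode metabolic enzymes or transporters. Tmem41a, a transmembrane protein, stood at 467, 505 and 605 in EE rats (lowest, median and highest) and at 364, 390 and 433 in ER rats. Its log2 fold change was -0.37 ± 0.08 (SE), and DESeq2 gave it an adjusted p of 0.0394. Rbks, the ribokinase that phosphorylates ribose, stood at 103, 114 and 155 in EE and at 72.8, 78.9 and 88.4 in ER.
Pcca, the alpha subunit of mitochondrial propionyl-CoA carboxylase, stood at 370, 383 and 400 in EE and at 293, 317 and 359 in ER. Abhd12, a lipase of lysophosphatidylserine, stood at 3533, 3665 and 3794 in EE and at 3117, 3350 and 3470 in ER, the smallest of these differences on the log2 scale (-0.14 ± 0.04, SE). In each of these genes the highest ER rat lay below the lowest EE rat.

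Slco1a4, an organic anion transporter of the blood-brain barrier, stood at 1031, 1098 and 1234 in EE and at 910, 976 and 1018 in ER. Slc22a12, a urate transporter best known from the kidney, was scarce, at 28.4, 37.3 and 53.1 in EE against 18.02, 22.3 and 25.7 in ER. Exoc3l4, a relative of an exocyst subunit, stood at 27.6, 29.5 and 37.5 in EE and at 4.14, 15.9 and 24.3 in ER, with the largest fold of the 12 separated genes named here (-1.13 ± 0.34, SE). Gramd2b, a GRAM domain protein, and Zbed3, a binding partner of axin, completed the 12, with log2 fold changes of -0.22 and -0.42. The unadjusted limma p of these 12 genes ran from 1.21e-05 (Ecel1) to 0.0039 (Exoc3l4). The remaining 10 of the 22, chosen by no rule but their sorting, were Tbx6, Lck, Zfp358, Cdh5, Slc39a1, Mthfs, Cfd, Nrros, Kdm1b and Polr1e.

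The genes that lay wholly higher in ER included a serotonin receptor and several nuclear or cytoskeletal proteins. Htr5a, the inhibitory serotonin receptor 5A, stood at 152, 168 and 184 in EE rats and at 193, 218 and 228 in ER rats. Its log2 fold change was 0.35 ± 0.10 (SE), and SH rats ranged from 36.5 to 178, below every ER rat. Med24, a Mediator subunit, stood at 1450, 1511 and 1642 in EE and at 1644, 1690 and 1876 in ER. Neither gene overlapped between the groups, though for Med24 the highest EE rat nearly met the lowest ER rat.

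Hebp2, a heme-binding protein, stood at 62.1, 70.9 and 83.0 in EE and at 83.8, 104 and 124 in ER. Rad54b, a DNA recombination protein, was near the limit of detection, at 7.16, 7.97 and 10.2 in EE and at 11.2, 16.4 and 18.8 in ER. It had the largest fold of the 12 named genes higher in ER, 0.83 ± 0.27 (SE) on the log2 scale. The others were Rrnad1 (0.32), Kri1, a ribosome biogenesis factor (0.25), Cald1, the actin-binding protein caldesmon (0.19), Tubd1, delta tubulin (0.34), Mosmo, a regulator of hedgehog signalling (0.37), the zinc finger gene Zfp958 (0.21) and Tmem165, a Golgi ion transporter (0.15). Their adjusted limma p was 0.685 in each case. The remaining 5 of the 17 were RGD1307443, Lrrc26 and 3 loci known only by a clone name.

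**Figure D2:**
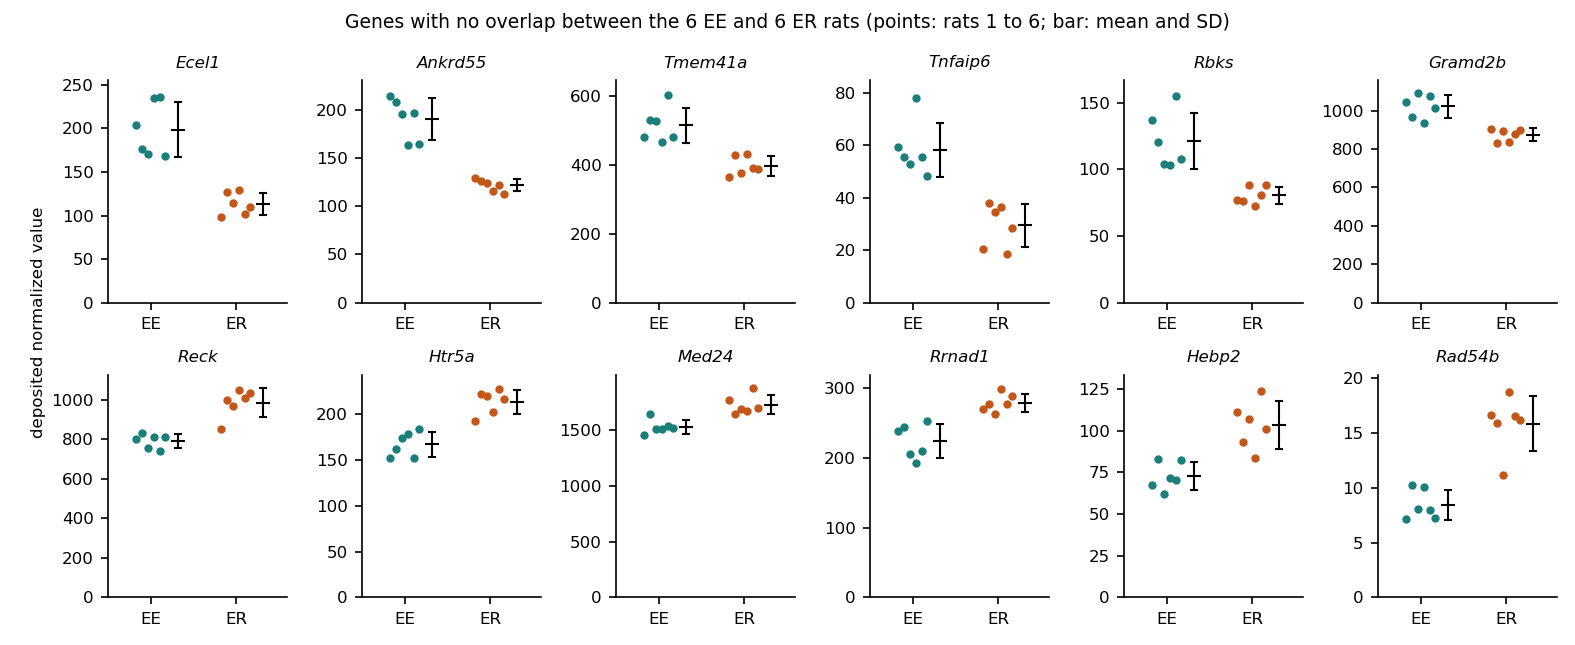
Deposited normalized values of 6 genes wholly lower (top row) and 6 wholly higher (bottom row) in ER, with 1 point per rat (replicates 1 to 6 from left to right, teal EE, orange ER) and the mean with its SD as a bar. Ecel1 runs from 98.7 to 129 in ER and from 168 to 237 in EE, and for Med24 the highest EE rat (1642) nearly meets the lowest ER rat (1644).

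The genes with the largest fold changes varied widely among rats. With the mean required to reach 10 normalized counts and loci known only by a clone name or a provisional locus number left out, the lowest log2 fold change belonged to Ptgfr, the prostaglandin F receptor, which stood at 5.01, 14.0 and 34.1 in EE and at 0, 4.24 and 23.5 in ER (-1.82 ± 0.70, SE). Cnksr1 (-1.77), Rbm20 (-1.68), Vwa2 (-1.58) and Slc17a4 (-1.43) followed, and all 5 overlapped between groups. The highest belonged to RT1-N2, a rat class I histocompatibility gene, at 1.92 ± 1.41 (SE), then Rpl38 (1.63), Stpg4 (1.53), Drc7 (1.42) and Fam228a (1.32). Rpl38 stood at 251 in ER 6 against 0 to 5.03 in EE rats, and its log2 fold change was 0.69 without ER 6. These genes also overlapped between groups.

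One further gene is given because DESeq2 called it, not by the rule that chose the others. The protein-coding locus AABR07070043.1 stood at 62.3, 795 and 2014 in EE rats and at 46.9, 66.7 and 80.4 in ER rats, so the lowest EE rat lay within the ER range. Its log2 fold change was -2.76 ± 0.71 (SE), lower than that of Ptgfr. Its EE mean was 848 ± 767 and its ER mean 65.2 ± 12.4 (SD, n = 6), with an adjusted DESeq2 p of 0.00107 and an adjusted limma p of 0.685. In SH rats it ranged from 47.3 to 1457.

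Genes were next grouped into 48 lists by cell type, pathway or complex, and each list is described by how many of its tested members were lower or higher in ER and by its median log2 fold change. Of the medians, 38 were negative and 10 positive, against 0.0030 over all genes. A list score was also formed for each rat as the mean over members of log2(value + 1) after each gene's mean over the 12 libraries was subtracted. In no list were the scores of the 6 EE and the 6 ER rats free of overlap. In bulk tissue, fewer cells of a type and less RNA per cell cannot be told apart.

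**Figure D3:**
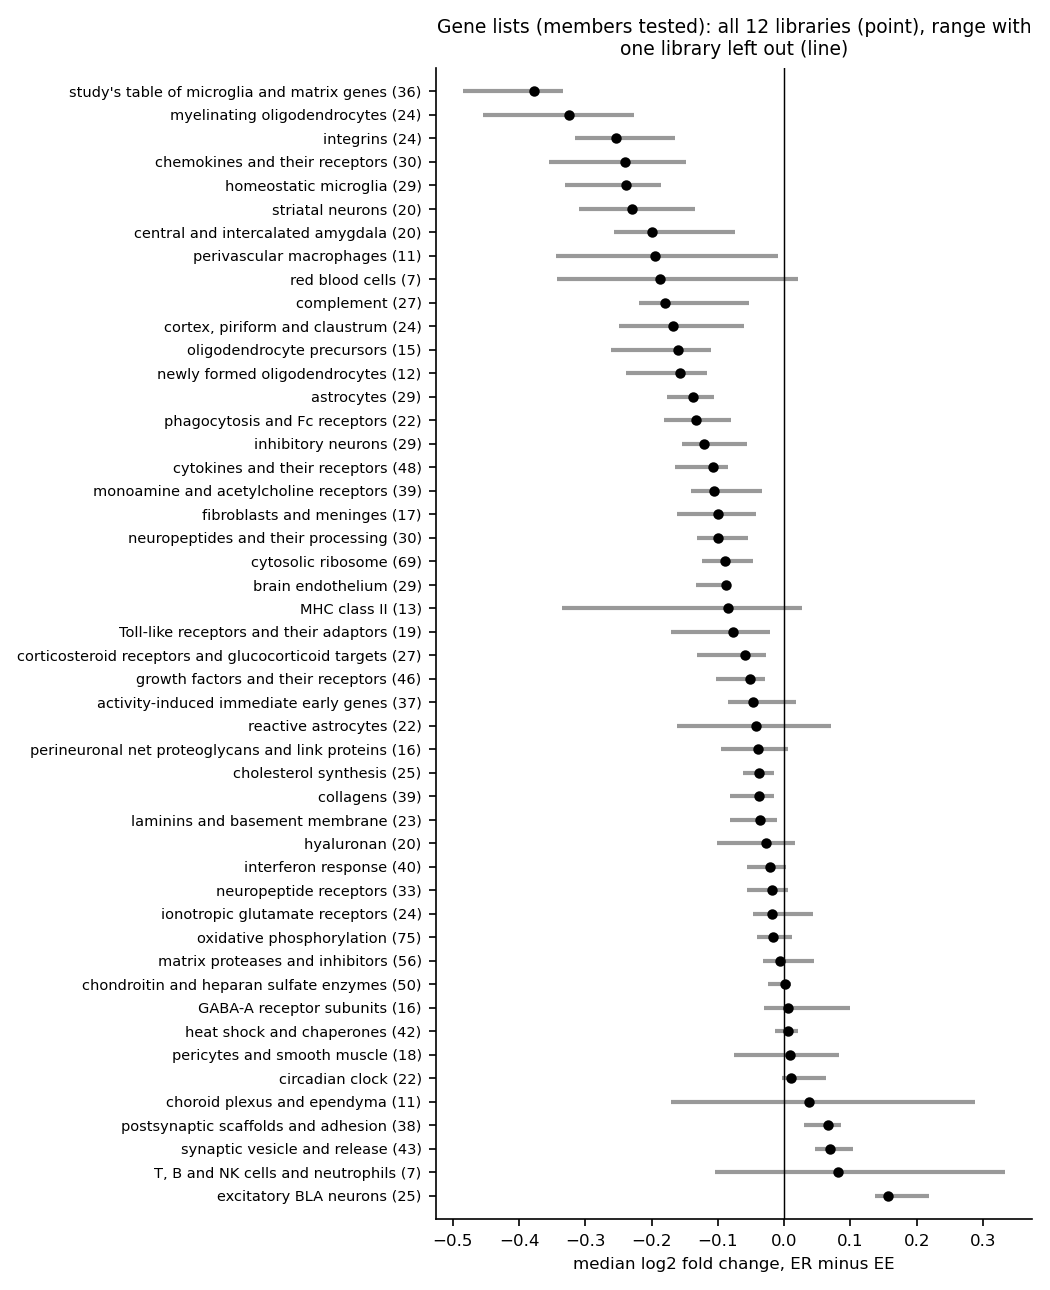
Median log2 fold change (ER minus EE) of each gene list on the horizontal axis, with the number of members tested in parentheses. Points are the fit with all 12 libraries and grey lines the range when each library is left out in turn; the table of 36 microglia and matrix genes lies lowest (-0.38) and excitatory BLA neurons highest (0.16).

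Microglial genes were mostly lower in ER. Of 29 homeostatic microglia markers tested, 26 were lower and 3 higher, with a median log2 fold change of -0.24. At an unadjusted limma p under 0.05, 10 were lower and 0 higher, against 3.76% and 3.36% of all genes. That count of 10 was 21 without EE 6, where 6.93% of all genes were lower at this p, and 1 without EE 5, where 2.48% were. The median stayed between -0.33 and -0.19 whichever library was left out.

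Fcrl2, matched to the mouse microglial marker Fcrls through its RefSeq synonym, had the lowest p of the list. It stood at 159, 364 and 444 in EE and at 111, 188 and 281 in ER (log2 fold change -0.92 ± 0.25, SE). EE 6 was the lowest EE rat, and the other 5 EE rats, at 291 to 444, all lay above the ER rats. Csf1r, the receptor on which microglial survival depends, stood at 1409, 2328 and 2945 in EE and at 1471, 1810 and 2122 in ER. The defining receptors P2ry12 (-0.19 ± 0.13, SE) and Cx3cr1 (-0.18) were lower in value with overlapping groups, and Tmem119 (0.15) was higher.

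Immune receptor and signalling lists followed the microglial list in sign, with fewer genes at low p. Chemokines and their receptors were lower for 24 of 30 tested members, with a median of -0.24. At an unadjusted p under 0.05, 4 were lower, against 3.76% of all genes. The 4 became 2 without EE 1, where 2.74% of all genes were lower, and 8 without EE 6, where 6.93% were. Cmklr1, the receptor for chemerin, stood at 60.4, 102 and 112 in EE and at 26.9, 55.0 and 81.7 in ER (-0.85 ± 0.24, SE). Cxcl12, a chemokine that guides migrating cells, stood at 1142, 1235 and 1439 in EE and at 1019, 1113 and 1239 in ER. The chemokine score was 0.19 to 0.29 in 5 EE rats and -0.10 in EE 6, against -0.38 to -0.0042 in ER rats.

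Of 27 complement genes, 15 were lower and 12 higher, with 7 lower and 1 higher at an unadjusted p under 0.05, against 3.76% and 3.36% of all genes. The 7 became 1 without EE 2, where 2.72% of all genes were lower, and 10 without EE 6, where 6.93% were. C1qa, a chain of the initiating complement protein C1q, stood at 942, 1311 and 1640 in EE and at 882, 1012 and 1354 in ER. Cfd, the protease complement factor D, was scarce and lay wholly lower in ER, at 4.47 to 15.4 against 15.7 to 35.3. Cfb, the factor B that it cleaves, had the opposite sign (1.07 ± 0.45, SE) with overlapping groups.
Toll-like receptors and their adaptors were lower for 14 of 19 and higher for 5. Their median of -0.078 ran from -0.17 to -0.021 with 1 library left out. At an unadjusted p under 0.05, 2 were lower and 1 higher, against 3.76% and 3.36% of all genes. Tlr7, an endosomal sensor of RNA, stood at 108 to 158 in EE and 58.1 to 125 in ER. The higher one was Tlr1, which was scarce, at 0 to 6.29 in EE and 1.03 to 11.2 in ER. Phagocytosis and Fc receptor genes were lower for 16 of 22, and cytokines and their receptors for 34 of 48 with a median of -0.11.

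Markers of the other immune cells that a punch could hold were few or scarce. Perivascular macrophage genes were lower for 8 of 11, and their best known markers Mrc1 (-0.20), Cd163 (-0.08) and Lyve1 (-0.22) overlapped between groups. Cd4, which rat microglia and macrophages also carry, stood at 90.6, 127 and 192 in EE and at 46.5, 64.7 and 97.1 in ER (-0.93 ± 0.22, SE). Of 25 lymphocyte and neutrophil markers only 7 passed the filter, 3 lower and 4 higher in ER. The T cell gene Cd3e stood at 9.06 to 91.8 in EE and at 9.77 to 67.2 in ER. Lck, a T cell kinase, had the lowest p of the list and lay wholly lower in ER (-0.52 ± 0.17, SE). It stood at 72.5 to 129 in EE and at 52.3 to 67.3 in ER. Over all genes 0.121% lay wholly lower. The part of these cells in the microglial values was not tested.

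All lists of the oligodendrocyte lineage had negative medians. Every one of the 24 myelinating oligodendrocyte genes tested was lower in ER, with a median of -0.33 and 8 at an unadjusted limma p under 0.05. Over all genes 3.76% were lower at this p. The count of 8 was 18 without EE 6, where 6.93% of all genes were, and 1 without EE 1, where 2.74% were. Mog, a surface protein of myelin, stood at 1006, 1603 and 2180 in EE and at 1026, 1171 and 1447 in ER. Mbp, the basic protein that compacts myelin, stood at 31729, 51724 and 74591 in EE and at 30660, 39211 and 49957 in ER. In both genes EE rats reached well above the ER rats while their lowest rat lay at the bottom of the ER range or below it.

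The scores of this myelin list show which rats were involved. EE 1 and EE 5 stood at 0.64 and 0.53, EE 6 at -0.44, and the ER rats between -0.45 (ER 3) and 0.12 (ER 2). Newly formed oligodendrocyte genes were lower for 10 of 12 (median -0.16), among them Neu4, a sialidase, at 58.0 to 102 in EE and 37.1 to 73.3 in ER. Oligodendrocyte precursor genes were lower for 12 of 15 (median -0.16), with Olig2, a transcription factor of the lineage, at -0.37 ± 0.14 (SE).

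Astrocyte markers were lower for 25 of 29, with a median of -0.14. At an unadjusted p under 0.05, 9 were lower, against 3.76% of all genes. The 9 became 16 without EE 6, where 6.93% of all genes were lower, and 4 without EE 5, where 2.48% were. Gfap, the intermediate filament of astrocytes, stood at 4636, 6084 and 8055 in EE and at 2798, 4498 and 6670 in ER (-0.51 ± 0.17, SE). ER 2, the highest ER rat, lay above every EE rat but EE 5. Mlc1, a membrane protein of astrocyte endfeet (-0.22), and Aldh1l1, an astrocytic folate enzyme (-0.30), were lower in value, while the transporter Slc1a3 was nearly level (-0.051).

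Brain endothelium genes were mostly lower in value, by small amounts. Of 29 genes, 26 were lower, 7 at an unadjusted p under 0.05, and 6 to 7 whichever library was left out. Over all genes 3.76% were lower at this p, and 2.48% (without EE 5) to 6.93% (without EE 6) with 1 library left out. The list median was -0.088. Cdh5, the cadherin of endothelial junctions, stood at 195, 224 and 308 in EE and at 173, 185 and 191 in ER. Cdh5 and Slco1a4 were the 2 members with no overlap, while 0.121% of all genes lay wholly lower in ER. Endothelial scores ran from -0.017 to 0.13 in EE and from -0.10 to 0.0059 in ER. Pericyte and smooth muscle genes were evenly divided, 9 lower and 9 higher, and Myh11, smooth muscle myosin, had the lowest p among them (0.51 ± 0.21, SE, higher in ER). Red blood cell genes passed the filter for 7 of 11, with Hbb at 396 to 668 in EE and 388 to 933 in ER.

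**Figure D4:**
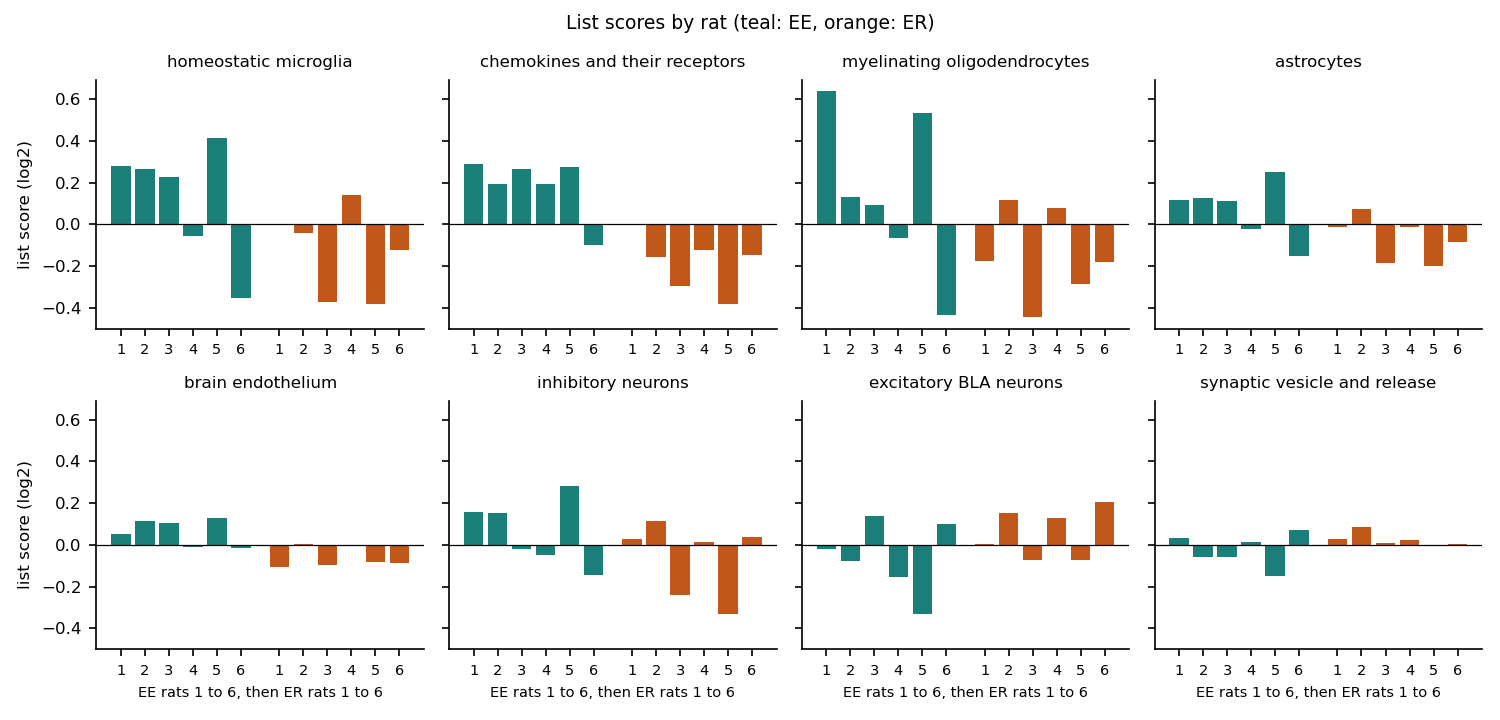
Score of 8 gene lists in each rat (mean over members of log2(value + 1) minus each gene's mean over the 12 libraries), EE rats 1 to 6 in teal and ER rats 1 to 6 in orange, on a common vertical axis. EE 6 resembles ER 3 and ER 5 in the microglial, myelin and astrocyte panels. In the excitatory neuron panel EE 6 stands at 0.098, while ER 3 (-0.075) and ER 5 (-0.072) are the lowest ER rats.

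The excitatory BLA and the inhibitory neuron lists had medians of opposite sign. Excitatory BLA neuron genes were higher in ER for 17 of 25, with a median of 0.16 that stayed between 0.14 and 0.22 whichever library was left out. At an unadjusted p under 0.05, 5 were higher and 0 lower, against 3.36% and 3.76% of all genes. Without EE 6 these counts were 12 and 3, where 6.46% of all genes were higher and 6.93% lower, and without EE 5 the higher count was 0, where 2.09% of all genes were higher. Cyp26b1, a retinoic acid hydroxylase, stood at 1622, 2994 and 6252 in EE and at 2928, 4951 and 7077 in ER. Fezf2, a transcription factor of projection neurons, stood at 423, 643 and 1049 in EE and at 736, 895 and 981 in ER, and EE 6 alone among EE rats exceeded the highest ER rat. Slc17a7, the vesicular glutamate transporter VGLUT1, stood at 36414, 41738 and 54047 in EE and at 44367, 46983 and 50004 in ER.

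Inhibitory neuron genes were lower for 22 of 29, with a median of -0.12 and 5 at an unadjusted p under 0.05, against 3.76% of all genes. The 5 became 2 without EE 1, where 2.74% of all genes were lower, and 10 without EE 6, where 6.93% were. Slc32a1, the vesicular GABA transporter, stood at 2072, 2348 and 2632 in EE and at 1957, 2033 and 2196 in ER (-0.19 ± 0.06, SE). Sst, the peptide of an interneuron class, stood at 3059, 4778 and 6528 in EE and at 2924, 3444 and 3892 in ER. The GABA-synthesising enzymes Gad1 (-0.066) and Gad2 (-0.13) overlapped between groups.

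Genes of neighbouring nuclei were also lower in value for the most part. Striatal neuron genes were lower for 14 of 20 (median -0.23), with Rgs9, a striatal regulator of G protein signalling, at 138, 235 and 311 in EE and 84.9, 129 and 228 in ER. Adora2a, the striatal adenosine receptor, had the opposite sign (0.39). Central and intercalated amygdala genes were lower for 13 of 20 and higher for 7 (median -0.20). Among the lower was Nts, the peptide neurotensin, at 72.5, 193 and 443 in EE and 24.8, 79.2 and 233 in ER. Prkcd, another central amygdala marker, had the opposite sign (0.11) with overlapping groups. Cortex, piriform and claustrum genes were lower for 16 of 24 (median -0.17). Some of these genes are also expressed in BLA neurons. They were lower beside the glial and inhibitory lists, and their part in those values was not tested.

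Synaptic genes were higher by small amounts. Synaptic vesicle and release genes were higher for 29 of 43 (median 0.068), with 6 higher and 1 lower at an unadjusted p under 0.05, against 3.36% and 3.76% of all genes. The higher count was 15 without EE 6, where 6.46% of all genes were higher, and 1 without EE 5, where 2.09% were. Sypl1, a synaptophysin relative, stood at 679, 766 and 856 in EE and at 799, 957 and 1109 in ER (0.31 ± 0.08, SE). Synj1, a lipid phosphatase of vesicle recycling (0.26), and Syn2, synapsin 2 (0.25), were also higher in value.
Postsynaptic scaffold and adhesion genes were higher for 30 of 38 (median 0.067). Nlgn1, the adhesion protein neuroligin 1, stood at 1472, 2082 and 2420 in EE and at 2226, 2501 and 2626 in ER. For the receptors themselves the sign was mixed, with 9 of 16 GABA-A subunits and 11 of 24 ionotropic glutamate receptor genes higher. Gria3, an AMPA receptor subunit, was higher in value (0.19 ± 0.07, SE), and Cacng2, an AMPA receptor auxiliary protein, was lower (-0.25 ± 0.09, SE).

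Extracellular matrix genes did not share one direction. The 16 perineuronal net proteoglycans and link proteins were lower for 11 and higher for 5, with a median of -0.040. At an unadjusted limma p under 0.05 there were 0, against 7.13% of all genes. Without EE 6, 2 were lower at this p, where 6.93% of all genes were. Hapln1, a link protein that ties proteoglycans to hyaluronan, stood at 1246, 1329 and 1782 in EE and at 1090, 1210 and 1446 in ER. The core proteoglycans, given for their role and not by the rule, overlapped between groups. Acan (aggrecan) stood at 57.1, 81.1 and 97.2 in EE and at 44.5, 68.2 and 92.8 in ER, and the log2 fold changes of Bcan (brevican) and Ncan (neurocan) were -0.06 and 0.07.

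Hyaluronan genes were divided in sign. Of 20 tested, 11 were lower and 9 higher (median -0.028). At an unadjusted p under 0.05, 3 were lower and 1 higher, against 3.76% and 3.36% of all genes. The 3 were Tnfaip6, Has2 and Cd44, and the higher one was Hyal3, a hyaluronidase. Has2, a hyaluronan synthase, stood at 10.2, 22.6 and 36.4 in EE and at 4.14, 6.18 and 21.2 in ER (-1.23 ± 0.42, SE). Cd44, the cell surface hyaluronan receptor, stood at 54.4, 101 and 184 in EE and at 22.3, 49.6 and 101 in ER (-1.06 ± 0.35, SE). The other synthases, Has1 (0.05) and Has3 (-0.35), overlapped as well.

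Enzymes that build chondroitin and heparan sulfate were lower for 24 and higher for 26 of 50, with a median of 0.0018. B3gat2, a glucuronyltransferase, stood at 335, 479 and 524 in EE and at 304, 332 and 381 in ER, with EE 4 and EE 6 within the ER range. Chst2, a sulfotransferase, was lower in value (-0.14 ± 0.06, SE).
Matrix proteases and their inhibitors were evenly divided, 28 lower and 28 higher. At an unadjusted p under 0.05, 5 were lower and 2 higher, against 3.76% and 3.36% of all genes. The lower count was 3 without EE 1, where 2.74% of all genes were lower, and 9 without EE 6, where 6.93% were. The higher count was 1 without EE 2, where 2.24% of all genes were higher, and 6 without EE 4, where 5.06% were. Besides Reck, the list held Adamts16, a secreted metalloprotease, at 3.77, 9.10 and 26.0 in EE and 1.03, 1.98 and 4.41 in ER (-1.88 ± 0.47, SE). Only EE 4 kept Adamts16 from sorting the rats. Ctsl, the protease cathepsin L, stood at 2052 to 2360 in EE and at 1851 to 2152 in ER.

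Integrins, the receptors that bind matrix, were lower for 20 of 24 (median -0.25), with 3 lower and 2 higher at an unadjusted p under 0.05, against 3.76% and 3.36% of all genes. The 3 became 0 without EE 2, where 2.72% of all genes were lower, and 9 without EE 6, where 6.93% were. Itgam, the microglial alpha M subunit, given for its role, stood at 257, 420 and 524 in EE and at 125, 320 and 365 in ER. Itga8 (0.52) and Itgb4 (0.64) had the opposite sign. Collagens were lower for 23 of 39 (median -0.038), and laminins and basement membrane genes for 15 of 23 (median -0.037).

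The study itself tabulated 36 microglia and matrix genes. All 36 were tested, and 32 were lower in ER, with a median of -0.38. At an unadjusted limma p under 0.05, 8 were lower, against 3.76% of all genes. The 8 became 5 without EE 2, where 2.72% of all genes were lower, and 13 without EE 6, where 6.93% were. The study drew up this table after its own analysis of these libraries had turned to microglia and matrix, so its direction is not independent evidence.

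**Figure D5:**
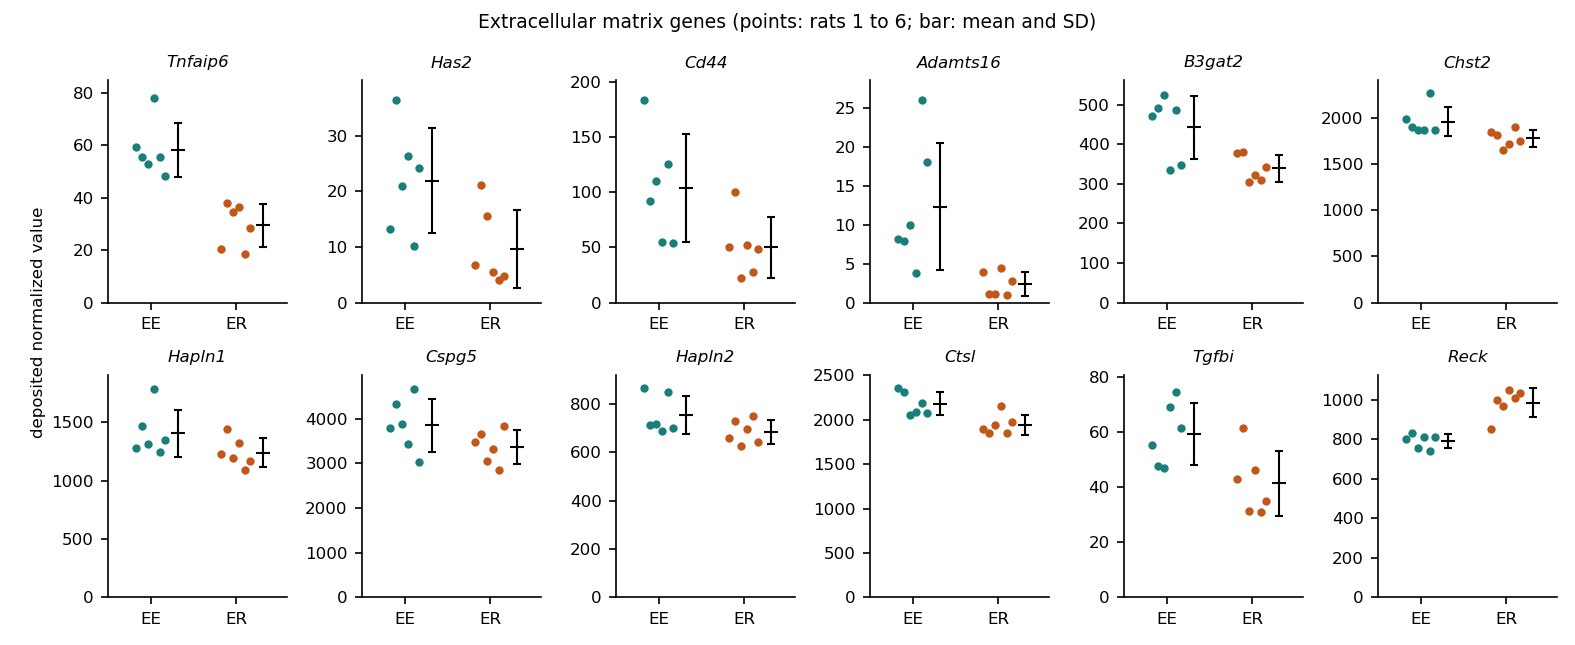
Deposited normalized values of 12 extracellular matrix genes, with 1 point per rat (replicates 1 to 6 from left to right, teal EE, orange ER) and the mean with its SD as a bar. Tnfaip6 and Reck are the only 2 panels in which the groups do not overlap, and they differ in opposite directions.

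Peptide, stress and ribosome genes complete the account. Neuropeptide and processing genes were lower for 22 of 30 (median -0.099). At an unadjusted p under 0.05, 5 were lower and 0 higher, against 3.76% and 3.36% of all genes. Besides Ecel1 and Sst the 5 included Pdyn, the dynorphin precursor, at 144, 362 and 467 in EE and 113, 152 and 324 in ER. Galr3, a galanin receptor, was scarce, at 2.00 to 4.53 in EE and 0 to 2.93 in ER.
Corticosteroid receptors and glucocorticoid targets were lower for 18 of 27 (median -0.059), with Ddit4 (-0.19) and Tsc22d3 (-0.15), both induced by glucocorticoids, at low p, and Fkbp5, another such target, at 0.15 ± 0.08 (SE). Immediate early genes were lower for 21 of 37. Egr1, an activity-induced transcription factor, stood at 2055, 2871 and 3714 in EE and at 1897, 2161 and 2710 in ER, while Nr4a3, a nuclear receptor of the same response, was higher in value (0.51 ± 0.23, SE). Fos itself overlapped (-0.25 ± 0.31, SE).

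Cytosolic ribosomal protein genes were lower for 61 of 69 by small amounts, with a median of -0.090. At an unadjusted p under 0.05, 6 were lower and 0 higher, against 3.76% and 3.36% of all genes. The lower count ran from 3 to 18 with 1 library left out (3 without EE 2, where 2.72% of all genes were lower, and 18 without ER 4, where 4.17% were). Rpl28 stood at 3025, 3614 and 3939 in EE and at 2409, 2695 and 3624 in ER (-0.33 ± 0.09, SE). Many ribosomal protein genes have near-identical copies, among which reads may have been split.

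The same rats recurred at the ends of the list scores. EE 6 was the lowest EE rat in 29 of the 48 lists. Among ER rats, ER 5 was lowest in 20 lists and ER 3 in 16, and ER 2 was highest in 24. With EE 6 left out, the smallest adjusted limma p was 0.169, so no gene was called without that rat either, and over leaving out each library it ran from 0.169 to 0.645.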

How the data were processed

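RNA from BLA micropunches (about 400 ng per rat) was poly(A) selected, made into libraries with a directional kit and sequenced as single 50-base reads, to a stated depth of 25 M reads per sample. The submitters' processing notes name HISAT2 and DESeq2. Their versions, the genome build, the annotation, the counting step and whether it used strand were not given in the sources read, so a gene and its antisense partner may share reads. The deposited signal values are gene read counts that the authors divided by library size factors, without length correction. No column of the table was left unmapped (0 unused).

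Each library's values were whole multiples of 1 step (100% of values up to 1000 reads, tolerance 0.01), which gave back whole reads. The step of EE 3 was too close to 1 to tell deposited values from reads, so its recovered reads rest on that small difference.

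Genes with a mean above 1 over the 18 libraries were kept. Deposited values were tested as log2(value + 1), a pseudocount of 1, with limma 3.58.1 in R 4.3.3 on the 12 EE and ER libraries, with p adjusted by Benjamini-Hochberg over 18172 genes at a threshold of 0.05. edgeR 4.0.16, DESeq2 1.42.0 and limma-voom ran on the recovered reads. Other alternatives were TMM scaling, other filters and pseudocounts (0.1 and 5), all 18 libraries in one fit, the replicate number as a block, and each library left out. The fits were tested on simulated data, with 1 draw per setting. On simulated libraries with no difference DESeq2 called 10 genes and limma 2. With changes built in, DESeq2 recovered 68.4% of those of 1.5-fold and limma 56.6%. In that draw they also called 23 and 8 unchanged genes.

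The 48 lists hold 1514 symbols, of which 1388 matched a gene symbol of the table and 11 a synonym in RefSeq, while 115 found no match. Lists share members. The members, lists and rules were chosen with earlier results of these data known. Named genes were the 12 per direction with the smallest p among named genes whose mean reached 10 and whose groups did not overlap, the 5 lowest and 5 highest fold changes at that mean, and up to 3 per list by p, beside list members given for their role. Promoter sequences came from RefSeq (GRCr8). The columns of the authors' own comparisons are not in the table used here. The labels call the libraries biological replicates, and since enriched rats shared cages, p values measure the spread between these libraries. Some genes of the lists are not reported here.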

Additional observations from a re-analysis of the deposited data

Results flagged for a closer look

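Values were screened in 68 groups of 6 (34 genes named by p without overlap or by fold change, EE and ER apart). In 7 groups the gap of 1 library to its nearest neighbour exceeded Dixon's critical share of the group's range. In unselected groups about 1 in 20 exceeds it. The genes were chosen on the same values, so that rate does not apply to them. Among genes lower in ER, the 7 included Tnfaip6 in EE 4 (78.0), Ptgfr in ER 1 (23.5) and Cnksr1 in EE 3 (62.1), each the highest of its group. Among genes higher in ER they were Kri1 in ER 1 (646), Tmem165 in ER 4 (869) and Rpl38 in ER 6 (251), each the highest of its group, and RT1-N2 in ER 6 (5.70), the lowest of its group. ER 6 thus stood apart from the other ER rats in Rpl38 and in RT1-N2, which had the 2 highest log2 fold changes among the named genes. In RT1-N2, EE 3 at 0 and EE 4 at 1.26 were lower still. No explanation was tested for these values.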

How the results depend on the processing

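The count of genes called by adjusted p was 0 in limma and in every alternative except DESeq2 (5 genes). The 1295 genes at an unadjusted p under 0.05 (684 lower, 611 higher) became 665 (415 lower, 250 higher) with all 18 libraries in the fit, and limma-voom gave 952 higher. Leaving out each library in turn gave 831 (without EE 5) to 2433 (without EE 6) genes in all, 450 (without ER 5) to 1259 (without EE 6) lower and 380 (without EE 5) to 1174 (without EE 6) higher. The higher count was also 407 without EE 2, 919 without EE 4 and 384 without ER 5, and the lower count 451 without EE 5. The causes were not tested. The chemokine list median was -0.39 under limma-voom. With the replicate number as a block, 0 genes were called and 1042 lay under 0.05 (569 lower, 473 higher). Same-numbered EE and ER libraries deviated with correlations of -0.071 to 0.050, and no EE library correlated best with the ER library of its number. These correlations showed no pairing by number, and a shared step behind the numbers was not tested otherwise. Of the 162 named genes, 162 kept their direction under all 22 alternatives, as did 30 of the 48 list medians (27 negative, 3 positive). The named genes were chosen by non-overlap, fold change or p on these same values. In 12 of the alternatives a library was left out, which cannot reverse a gene whose groups do not overlap. The result for the named genes was thus in large part set by their selection and is not an independent test. With 6 rats per group, a scarce gene such as Rad54b is limited by its few reads.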

Other observations

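Some lists that a housing change might touch stood near the background. Heat shock and chaperone genes were lower for 20 of 42, with a median log2 fold change of 0.0060. At an unadjusted limma p under 0.05 there were 0, against 7.13% of all genes. Without EE 6, 3 were lower and 1 higher at that p, where 6.93% and 6.46% of all genes were. Oxidative phosphorylation genes had a median of -0.017 and 0 of 75 at that p. Circadian clock genes were higher for 12 of 22 (median 0.010). Ciart, a clock repressor, stood at 84.9 to 207 in EE and at 147 to 240 in ER, and Bhlhe41, another clock repressor, at 289 to 399 in EE and 211 to 325 in ER.

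Growth factor and receptor genes were lower for 27 of 46 (median -0.052). Ret, the signalling receptor for the GDNF family, stood at 91.8, 159 and 175 in EE and at 69.2, 107 and 148 in ER. Gdnf itself was at the limit of detection, at 0 to 1.26 in EE and 0 to 6.21 in ER. Cholesterol synthesis genes were lower for 21 of 25 with a small median (-0.038). Interferon response genes were divided, with 21 lower and 19 higher. Among them Ifngr1, a chain of the interferon gamma receptor, stood at 999 to 1368 in EE and 895 to 1048 in ER, and Irf9, a transcription factor of the type I response, at 173 to 280 in EE and 208 to 373 in ER. None of these genes passed the adjusted limma test.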
